A study of Mus musculus with 8 samples.

Results

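Long intergenic noncoding RNA (lincRNA) loci were followed between the chromatin and nucleoplasm fractions of HL1 nuclei. A locus was taken if it was assembled by the authors from short reads, if its best same-strand match in the GENCODE M21 annotation (mouse, mm10) was an autosomal lincRNA gene, and if the shared part was at least 0.5 of the joint span. It also had to lie above 0 in any of the 6 short-read libraries. Named nuclear and imprinted RNAs (Malat1, Neat1, Pvt1, Meg3, H19, Rian, Mirg and Gas5), Snhg genes, loci over a same-strand microRNA gene and 1 interval of chromosome 17 were set aside. Of 20637 assembled loci, 551 had a lincRNA gene as best match, 301 reached the overlap minimum, 252 of the autosomal ones were above 0, and 236 remained. The whole table holds 65265 entries, and GENCODE lists 5209 autosomal lincRNA genes. Loci were thus chosen by their value in any short-read library, and the rule did not use the difference between fractions. At its overlap limit the closest loci inside were Lppos (0.505 of the joint span), Gm15728 (0.513) and Gm13387 (0.515), and the closest outside were 2310043O21Rik (0.498), Gm26511 (0.497) and AC148019.2 (0.496). A further 3264 entries of the table that carry a transcript accession matched a lincRNA gene and were not taken, of which 993 were above 0.

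HL1 cells are an immortal mouse line of atrial heart muscle origin (AT-1), and every group here was grown in Claycomb medium with norepinephrine. Nuclei were extracted with urea and detergent, the soluble part was kept as nucleoplasm and the pellet as chromatin, and ERCC standard RNAs were added to each. Short reads were stranded 50 bp reads of ribosomal RNA-depleted RNA, from 3 chromatin and 3 nucleoplasm libraries, and long reads were nanopore cDNA reads from 2 chromatin libraries. One label field reads chromatin for the 3 nucleoplasm libraries too, and their titles, which read nucleoplasm, were followed. HL1 is a single tumor-derived line, so the libraries describe these cells and not heart tissue. The recovered read totals lay between 91657034 and 121773350 per short-read library.

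LincRNAs are transcribed by RNA polymerase II from their own promoters, and many are spliced and polyadenylated like messenger RNAs while encoding no known protein. Many stay in the nucleus, where some act on the transcription of nearby genes and others on chromatin or splicing, while some are exported and bind proteins or RNA in the cytoplasm. RNA that stays attached to chromatin after urea extraction has been called chromatin-enriched RNA (cheRNA), and includes nascent transcripts that are still bound to the polymerase.

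The sequences below show what kinds of loci this annotation class holds. The first pair are the locus with the highest value per kb of span, Bc1, and the coding stretch that the locus with the largest fall, Gm10076, shares with Rpl41. Bc1 is a small RNA polymerase III transcript known from neurons, and its 168 base GENCODE transcript is printed in lower case throughout. The Gm10076 stretch of 78 bases runs from the start to the stop codon of Rpl41, which encodes a ribosomal protein, and has 0 differences from it, so that no base is in capitals.
Bc1: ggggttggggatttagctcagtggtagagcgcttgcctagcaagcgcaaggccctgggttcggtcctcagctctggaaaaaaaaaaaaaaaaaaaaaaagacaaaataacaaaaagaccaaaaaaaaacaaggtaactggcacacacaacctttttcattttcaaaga
Gm10076: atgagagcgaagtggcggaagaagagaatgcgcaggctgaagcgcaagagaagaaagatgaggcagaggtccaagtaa

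The next set shows promoters of 300 bases, from 250 before to 50 after the RefSeq start (GRCm38.p6, 5′ to 3′ on the strand of the gene), with CpG dinucleotides in capitals. They were chosen after their values were seen, to set promoters that lie head to head with a coding gene beside promoters that do not, with a higher and a lower locus of each kind. 2010320M18Rik (chr8:70776612-70776911, plus strand) starts opposite Pik3r2 and was lower in chromatin. Gm15834 (chr1:58504870-58505169, plus strand) starts opposite Orc2 and was higher in chromatin. 2310040G24Rik (chr6:86488178-86488477, minus strand) was lower in chromatin, 3830432H09Rik (chr1:119536116-119536415, minus strand) was higher, and neither overlaps or starts head to head with a coding gene. G630016G05Rik (chr2:116066975-116067274, plus strand) lies next to the homeodomain gene Meis2 and was higher.
2010320M18Rik: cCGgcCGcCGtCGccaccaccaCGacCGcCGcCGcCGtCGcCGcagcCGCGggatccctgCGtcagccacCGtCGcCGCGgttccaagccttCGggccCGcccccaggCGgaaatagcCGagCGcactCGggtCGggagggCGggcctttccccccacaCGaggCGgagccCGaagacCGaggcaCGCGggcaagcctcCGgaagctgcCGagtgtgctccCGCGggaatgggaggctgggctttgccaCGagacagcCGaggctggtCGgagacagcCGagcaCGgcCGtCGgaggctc
Gm15834: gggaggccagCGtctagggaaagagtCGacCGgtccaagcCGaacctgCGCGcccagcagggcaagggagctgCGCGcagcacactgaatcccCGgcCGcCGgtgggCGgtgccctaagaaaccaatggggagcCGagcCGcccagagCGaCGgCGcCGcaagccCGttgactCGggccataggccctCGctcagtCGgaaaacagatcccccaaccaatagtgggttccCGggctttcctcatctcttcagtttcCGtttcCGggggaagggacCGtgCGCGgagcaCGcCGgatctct
2310040G24Rik: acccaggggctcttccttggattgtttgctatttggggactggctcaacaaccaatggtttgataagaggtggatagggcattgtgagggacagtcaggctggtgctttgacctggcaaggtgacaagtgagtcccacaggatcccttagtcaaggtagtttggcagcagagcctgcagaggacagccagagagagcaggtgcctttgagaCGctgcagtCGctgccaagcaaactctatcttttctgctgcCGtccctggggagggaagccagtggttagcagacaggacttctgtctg
3830432H09Rik: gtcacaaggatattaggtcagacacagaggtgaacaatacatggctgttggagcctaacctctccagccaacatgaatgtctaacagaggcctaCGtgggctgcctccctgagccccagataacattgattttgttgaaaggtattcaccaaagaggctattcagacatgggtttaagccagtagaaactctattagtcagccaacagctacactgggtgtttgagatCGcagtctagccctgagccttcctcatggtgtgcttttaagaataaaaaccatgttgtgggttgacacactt
G630016G05Rik: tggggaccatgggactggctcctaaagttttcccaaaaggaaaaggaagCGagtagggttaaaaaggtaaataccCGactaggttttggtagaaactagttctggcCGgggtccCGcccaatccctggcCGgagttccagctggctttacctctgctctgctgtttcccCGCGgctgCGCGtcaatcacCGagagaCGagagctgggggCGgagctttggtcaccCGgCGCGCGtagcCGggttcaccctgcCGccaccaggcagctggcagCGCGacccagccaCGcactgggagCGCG

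The 43 CpG dinucleotides of 2010320M18Rik and the 30 of Gm15834 stand against 3 in 2310040G24Rik and 2 in 3830432H09Rik. The promoter next to Meis2 holds 23.

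The 236 loci were mostly weak. The median of their mean normalized counts over the 6 libraries was 49.4, with 69 loci under 10 and 90 at 100 or above, and 170 were above 0 in every library. Another 25 were at 0 in all 3 nucleoplasm libraries and 4 at 0 in all 3 chromatin libraries, so these had to be higher or lower by the way they entered. Their spans ran from 154 to 432399 bp with a median of 10633 bp, and 17 had a single annotated exon. Most carry only clone-type names, 117 of the Gm kind and 82 of the Rik kind. Together they took 0.684% to 0.968% of the normalized counts of a chromatin library and 0.194% to 0.293% of a nucleoplasm library. Without D230017M19Rik, the most abundant locus, these shares were 0.515% to 0.555% and 0.120% to 0.156%. The share was therefore larger in every chromatin library than in any nucleoplasm library with or without that locus.

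The fractions were checked by known RNAs, since the first question of the design is whether RNA stays with chromatin. Malat1, a nuclear RNA, had a log2 ratio of fraction means of 3.82, while the housekeeping mRNA Gapdh stood at -2.06. Of 11 cardiomyocyte markers 9 had a mean of at least 10, with summed normalized counts of 1307400 to 2675020 in chromatin and 270475 to 429300 in nucleoplasm. Ttn made most of that sum, and Myh6 and Tnnt2 were not matched to an entry here. The markers differed in direction, so the sum does not describe each of them. Actn2, Gata4, Ryr2 and Ttn had log2 ratios of fraction means of 1.98 to 2.88. Actc1 stood at -0.01, and Gja1, Tnni3, Nppa and Nkx2-5 at -1.25 to -2.08. Of 5 fibroblast markers 4 reached that mean, summing to 101721 to 117003 in chromatin and 212564 to 347571 in nucleoplasm, nearly all of it Col1a1. Endothelial markers (3 of 4) summed to 1049 to 1828 and 1755 to 2934, and smooth muscle markers (2 of 3) to 50405 to 79325 and 146411 to 202482. Blood markers (2 of 4) summed to 77.2 to 180.0 and 76.8 to 105.5. In the endothelial and blood lists Cdh5 and Hbb-bs were at 0. The highest there were Kdr (means of 1258 in chromatin and 2187 in nucleoplasm) and Cd68 (88.5 and 45.8). The smooth muscle gene Tagln was not matched to an entry. The sums of cardiomyocyte markers were lowest in replicate 3 of both fractions. The part of these marker differences in the results on lincRNA was not tested.

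Replicate 3 of chromatin stood apart at some of the lincRNA loci as well. In chromatin, replicate 3 lay more than 2 fold from the mean of the other 2 libraries at 13 of the 90 loci with a mean of at least 100 (14.4%, against 8.73% of all genes at that level), while replicates 1 and 2 did so at 1 locus each. In nucleoplasm, replicate 3 did so at 7 of the 90 (7.78%), close to the 6.94% of all genes at that level. Without replicate 3 in both fractions, 116 loci were higher in chromatin, 21 were lower and 72 passed the cheRNA thresholds given below.

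Comparing chromatin with nucleoplasm, 115 of the 236 lincRNA loci (48.7%) were higher in chromatin and 20 (8.47%) were lower, by limma on log2(normalized count + 1) with a Benjamini-Hochberg adjusted p under 0.05. Of all 35830 genes tested, 26.9% were higher and 20.9% were lower. The remaining 101 loci passed the test in neither direction. The median log2 fold change of the loci was 1.22, with quartiles of 0.20 and 2.45, against 0.38 over all genes tested, with quartiles of -0.72 and 1.56. Among the 19725 assembled loci above 0 the median was 0.02, with 32.5% higher and 35.5% lower. That set was not matched on level. At a mean under 10, 30.4% of the lincRNA loci and 26.4% of assembled loci were higher, with medians of 1.025 and 1.017. From 10 to 100 the shares were 50.65% and 42.0%, and from 100 to 1000 they were 58.5% and 27.1%. At 1000 or above they were 64.9% and 33.8%. The distance from other assembled loci was thus small at the weakest loci. The thresholds of the study for cheRNA (more than 4 fold higher in chromatin, with the same limit on p, and longer than 200 bp, here in span) were passed by 72 loci, against 15.4% of all genes tested. More than 4 fold lower were 4 loci, Gm10076, Gm11496, Gm49207 and 2310040G24Rik, where the share of all genes was 4.9%, and without nucleoplasm replicate 3 this count was 2.

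Every chromatin library lay above every nucleoplasm library at 130 loci, where 31.5% of all genes did so, and below at 27 loci, where 23.8% did so. At the other 79 loci the fractions overlapped. The 115 higher and the 20 lower loci all had fractions that did not overlap, as had 22 of those not called. The 25 loci at 0 in every nucleoplasm library could not be lower, and the 4 at 0 in every chromatin library could not be higher. Their part was not taken out of these counts or of those above the cheRNA thresholds. Among the 167 loci with a mean of at least 10, 101 were higher, 20 were lower and 59 passed the cheRNA thresholds.

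**Figure D1:**
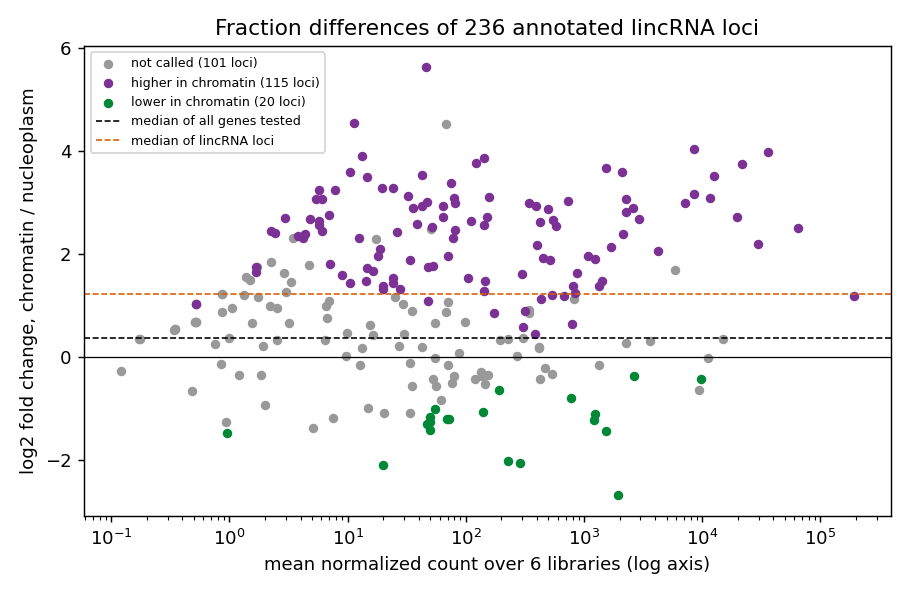
Each point is 1 of the 236 lincRNA loci, with its mean normalized count over the 6 libraries on a log axis and its log2 fold change of chromatin over nucleoplasm. The 115 higher loci spread over the whole range of levels, the 20 lower ones reach down to -2.68, and dashed lines mark the medians of the loci (1.22) and of all genes tested (0.38).

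The balance of higher and lower calls moved with the scaling of the libraries. With libraries scaled to equal totals of the ERCC standards the median over all genes moved from 0.38 to 0.83, 141 loci were higher and 3 lower, and the median of the loci lay 1.00 above that of all genes. With quantile normalization it moved to 0.01, 76 loci were higher and 26 lower, and the loci lay 0.52 above. In the deposited scaling that distance was 0.84. Higher loci were 85.2% of those called in the deposited scaling, 97.9% with ERCC and 74.5% with quantile normalization. In the deposited scaling 26.9% of all genes tested were higher and 20.9% lower. The shares of all genes called with ERCC or quantile scaling are not given here. The counts of loci under these scalings are therefore no result about the loci apart from other genes.

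Among loci with a mean of at least 100, the largest rise was that of Gm12153 (chr11:43959047-44165643, plus strand), a locus of 7 exons between coding genes. It had 16887, 13130 and 18396 normalized counts in the chromatin libraries and 916, 865 and 1163 in the nucleoplasm libraries. The lowest chromatin library was thus far above the highest nucleoplasm library, and the log2 fold change was 4.04 (SE 0.17, n = 3 per fraction, limma adjusted p = 2.7e-05).

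Lncpint (chr6:31076515-31220126, minus strand), known as a transcript induced by p53, had 72205, 66660 and 62837 normalized counts in chromatin. In nucleoplasm it had 4508, 3821 and 4466. The fractions did not overlap, the log2 fold change was 3.98 (SE 0.11, n = 3 per fraction, limma adjusted p = 2.3e-05), and it was the third most abundant of the 236 loci. Gm14532, which lies on the other strand beyond the start of Lncpint, had 242 to 296 normalized counts in chromatin and 15.2 to 20.4 in nucleoplasm. It rose by a log2 fold change of 3.85 (SE 0.21).

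The other rises were 4921539H07Rik (log2 fold change 3.76), Gm48619 (3.74), AI480526 (3.67), AC166748.2 (3.60) and Gm45589 (3.51), with limma adjusted p between 7.7e-05 and 0.0013. Gm48619 had 31074, 27093 and 63557 normalized counts in chromatin and 2391, 1774 and 5265 in nucleoplasm. Replicate 3 was therefore the highest library of both fractions at this locus. AC166748.2 showed the reverse, with 4943, 4508 and 2156 in chromatin and 357, 350 and 216 in nucleoplasm. Within each replicate number both loci were higher in chromatin. AI480526 starts head to head with Setd1b, which encodes a histone methyltransferase.

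**Figure D2:**
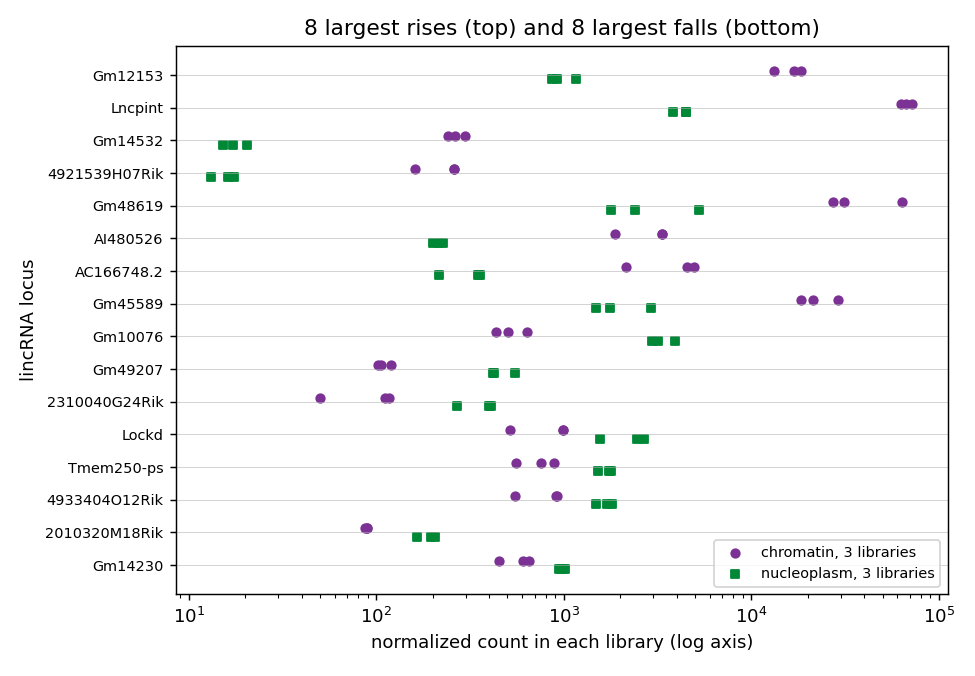
Each row is a lincRNA locus, with the normalized counts of the 3 chromatin libraries (circles) and the 3 nucleoplasm libraries (squares) on a log axis, for the 8 largest rises and the 8 largest falls with a mean of at least 100. In none of the 16 loci do the fractions overlap, with log2 fold changes of 3.51 to 4.04 for the rises and -0.79 to -2.68 for the falls.

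The largest fall was at Gm10076 (chr14:105681851-105682219, plus strand), the locus with the Rpl41 copy printed above. It had 435, 507 and 637 normalized counts in chromatin and 2950, 3197 and 3903 in nucleoplasm. Its log2 fold change was -2.68 (SE 0.18, n = 3 per fraction, limma adjusted p = 8.2e-05), and all nucleoplasm libraries were above all chromatin libraries. Over 383 bases it was 99.5% identical to Rpl41 transcripts, so reads from the 2 genes may not be told apart and its value is uncertain. Gm49207 (log2 fold change -2.06, SE 0.16) was in the same position, with 99.6% identity over 267 bases to Ahsa1, which encodes an activator of HSP90. In all, 19 of the 236 loci shared at least 200 bases at 95% identity or more with a coding transcript or another of these loci, 4 of them among the 20 lower ones. Without the 19, 102 loci were higher and 16 lower.

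2310040G24Rik had 112, 116 and 50.0 normalized counts in chromatin and 398, 409 and 271 in nucleoplasm, a log2 fold change of -2.01 (SE 0.38, limma adjusted p = 0.0054). Lockd (chr6:134929092-134951718, plus strand), which lies downstream of the cell cycle inhibitor gene Cdkn1b, had 993, 991 and 516 in chromatin and 2689, 2455 and 1552 in nucleoplasm. Replicate 3 was the lowest library of both fractions at both loci, and the fractions did not overlap. The log2 fold change of Lockd was -1.44 (SE 0.33, limma adjusted p = 0.013). It was not called without nucleoplasm replicate 1 (-1.29) or nucleoplasm replicate 2 (-1.36).

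The smaller falls were at Tmem250-ps (log2 fold change -1.22), 4933404O12Rik (-1.10), 2010320M18Rik (-1.07) and Gm14230 (-0.79), with limma adjusted p between 0.0018 and 0.0079. 2010320M18Rik, whose CpG-rich promoter is printed above, had 89.4, 87.0 and 89.5 normalized counts in chromatin and 195.0, 205.0 and 165 in nucleoplasm. With ERCC scaling, 3 of the 20 lower loci were still called lower and 3 changed sign, none of which passed the test in the other direction. Lockd, Tmem250-ps, 4933404O12Rik, 2010320M18Rik and Gm14230 kept a negative log2 fold change there, of -0.71 to -0.06, and were not called.

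Per kb of span, Bc1 (chr7:144914470-144914623, plus strand) had the highest value, a mean of 60977 normalized counts per kb. Its chromatin libraries had 6845, 4543 and 11505 normalized counts and its nucleoplasm libraries 12837, 9760 and 10853. The fractions overlapped through chromatin replicate 3, and the log2 fold change was -0.64 (SE 0.34, limma adjusted p = 0.18), or 0.09 with ERCC scaling. Without chromatin replicate 3 the value was -0.99 and the locus was called lower. It was not called without replicate 3 in both fractions (-1.005, limma adjusted p = 0.10), nor with any other single library left out. These libraries hold no cytoplasm fraction, in which Bc1 RNA is known to act in neurons.

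D230017M19Rik was the most abundant locus, with 247742, 165726 and 394381 normalized counts in chromatin and 135178, 85295 and 120936 in nucleoplasm. It spans 4 small nuclear RNA genes on the same strand, and their part in its value was not tested. The log2 fold change was 1.18 (SE 0.36, limma adjusted p = 0.038). The call was lost when any library but chromatin replicate 2 was left out, with values between 0.86 and 1.32, and when replicate 3 was left out of both fractions (0.92). It was also lost with edgeR on the recovered reads (1.13), limma without a trend (1.18), quantile normalization (0.99) and TMM scaling (1.08).

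2900097C17Rik, the mouse Norad gene, whose transcript is known to bind Pumilio proteins, had 8508, 8906 and 7839 normalized counts in chromatin and 11470, 11150 and 11100 in nucleoplasm. The difference was small, with a log2 fold change of -0.42 (SE 0.08, limma adjusted p = 0.0064), and it turned to 0.31 with ERCC scaling. Gm7292, a single-exon locus with 99.2% identity to it over 2537 bases, had a log2 fold change of -0.37 (SE 0.09). Reads of this pair may be shared between them.

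Gm42047 (chr8:121833480-121840874, plus strand) had 37986, 35406 and 28723 normalized counts in chromatin and 5157, 5417 and 4948 in nucleoplasm. Its fractions were far apart, with a log2 fold change of 2.71 (SE 0.13, limma adjusted p = 3.1e-05). It is 1 of 5 loci on chromosomes 3, 8, 9 and 10 that share stretches at 98.4% to 99.6% identity, the others being Gm43549, Gm47761, Gm47939 and Gm48362. All 5 were higher in chromatin, with log2 fold changes of 2.66 to 2.88 and chromatin means of 947 to 34039 normalized counts. As with the pairs above, reads may be shared within this family, so these are not 5 separate observations.

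Of the well-known lincRNAs, which were named at any level, Bvht (Braveheart) is required for cardiac commitment of mouse embryonic stem cells and was weak here. It had 25.4, 26.2 and 27.1 normalized counts in chromatin and 56.6, 81.5 and 79.7 in nucleoplasm. It was lower in chromatin without overlap, with a log2 fold change of -1.42 (SE 0.25, limma adjusted p = 0.0045), and was not called with ERCC scaling (-0.70). Epb41l4aos (log2 fold change 0.85, SE 0.38, limma adjusted p = 0.12) and 1810058I24Rik (0.27, SE 0.17, limma adjusted p = 0.25) did not pass the test. Both are also on the list of well-known lincRNAs, which is not a list of heart genes. Without replicate 3 in both fractions 1810058I24Rik was called higher, at the same value of 0.27. With ERCC scaling both were called higher (1.58 and 1.00), and Epb41l4aos also with DESeq2 (0.99).

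3 loci with a mean of at least 100 lay within 100 kb of a cardiac transcription factor gene. Gm20468 (chr17:26844960-26903122, plus strand) starts head to head with Nkx2-5, which encodes a homeodomain factor of heart development. It had 11097, 11301 and 4205 normalized counts in chromatin and 3595, 3543 and 1223 in nucleoplasm. The fractions did not overlap, but replicate 3 was the lowest library in both, and the log2 fold change of 1.69 (SE 0.57, limma adjusted p = 0.053) did not pass. Nkx2-5 itself had 3029, 3595 and 1194 in chromatin and 7381, 7882 and 3272 in nucleoplasm, so replicate 3 was the lowest library there as well, and its log2 ratio of means was -1.25. Gm20468 was called higher without replicate 3 in both fractions (1.65), with DESeq2 on the recovered reads (1.67) and with ERCC scaling (2.43). It was also called with either filter on low values (1.69). With the replicate number as a block it was called higher by limma (1.69, SE 0.06) and by edgeR (1.59).

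On the opposite strand, Gm17382 had 329, 297 and 174 normalized counts in chromatin and 40.4, 41.9 and 32.6 in nucleoplasm, a log2 fold change of 2.72 (SE 0.29, limma adjusted p = 5.1e-04). G630016G05Rik, next to Meis2, had 642, 586 and 580 in chromatin and 72.8, 58.7 and 98.6 in nucleoplasm. Its fractions did not overlap, with a log2 fold change of 2.99 (SE 0.21, limma adjusted p = 1.0e-04). The neighbor Meis2 had a log2 ratio of means of 3.29, so both genes of this pair were far higher in chromatin, whereas Nkx2-5 and its head-to-head locus had ratios of opposite sign.

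The loci were also split by span into 4 classes of 59, as a description. In the class with the shortest spans (154 to 4386 bp) 22 were higher and 10 lower, with a median log2 fold change of 0.42. In the second (4476 to 10548 bp) 24 were higher and 6 lower, with a median of 0.99, and in the third (10718 to 31353 bp) 27 were higher and 4 lower, with a median of 1.08. In the class with the longest (31364 to 432399 bp) 42 were higher, with a median of 2.05. None of these 59 was lower with limma, at an adjusted or an unadjusted p under 0.05, nor with edgeR or DESeq2. The share of lower loci among all assembled loci also fell along these classes, from 43.8% to 40.3%, 38.7% and 23.3%. All assembled loci of the same spans also had larger shares of higher loci at the long end, with 25.2%, 30.6%, 30.2% and 42.3% higher from the shortest to the longest class. Their medians were -0.38, -0.07, -0.12 and 0.30.

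As a description across loci, which are not independent replicates and share the 6 libraries, log2 fold change and log10 span had a Spearman's rho of 0.35 and a Pearson's r of 0.39 over the 236 loci. Over the 90 with a mean of at least 100 rho was 0.50, and over all 19725 assembled loci it was 0.16. With the mean count rho was 0.10. The number of exons followed the same order as the span. Of the 17 loci with 1 annotated exon 6 were higher and 6 lower, with a median log2 fold change of -0.15, while of the 93 with 4 or more exons 55 were higher and 2 lower, with a median of 1.64. Loci with 2 exons had a median of 0.56 and those with 3 a median of 1.18. The median span was 17360 bp for the higher loci and 4276 bp for the lower ones.

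**Figure D3:**
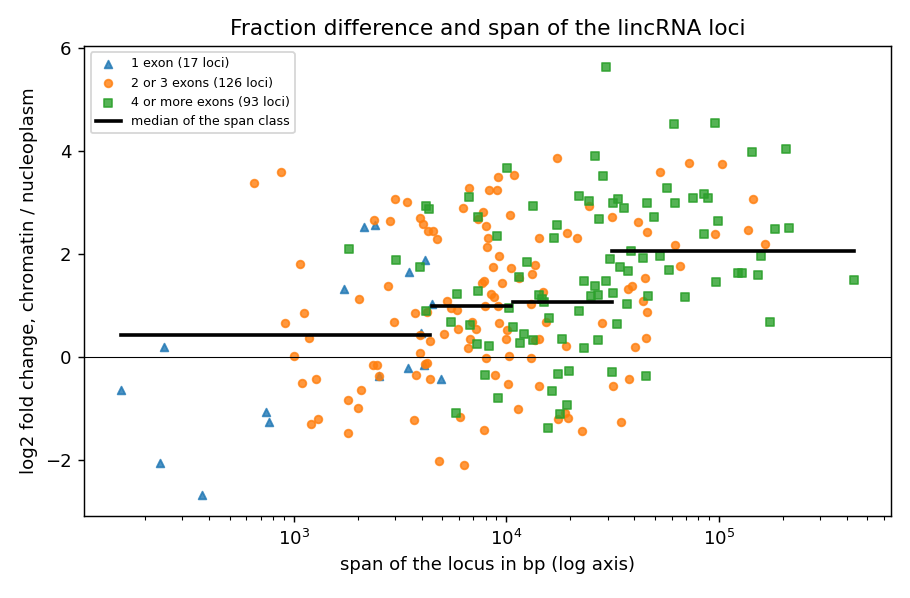
Each point is a lincRNA locus with its span in bp on a log axis and its log2 fold change of chromatin over nucleoplasm, with symbols for the annotated number of exons and black bars for the median of each of 4 classes of span. The bars step from 0.42 in the shortest class to 2.05 in the longest, and both of the shortest lower loci have a single exon.

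By position against coding genes, each locus was placed in a single class. Head-to-head starts were taken first, then same-strand overlap, overlap on the other strand and downstream position. The overlap classes therefore leave out loci that also start head to head. Of the loci, 124 had none of the arrangements named here, of which 60 were higher and 9 lower. The 12 loci that overlapped a coding gene on the same strand had 11 higher and a median log2 fold change of 2.18, and reads of the coding gene may be counted there. None of the 12 was lower with limma, adjusted or unadjusted, nor with edgeR or DESeq2. Of the 28 loci that overlapped a coding gene on the other strand 12 were higher and 1 lower. The 11 loci within 5 kb downstream of a coding gene on the same strand had 7 higher and 2 lower. Without the 12 loci in a same-strand overlap, 104 were higher and 20 lower.

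The 61 loci that start within 1 kb head to head with a coding gene had 25 higher and 8 lower and a median log2 fold change of 0.75. For 58 of them the coding gene had entries above 0, and the log2 ratio of fraction means of both genes could be set side by side. The ratio was above 0 for 40 of the lincRNA loci and for 18 of the coding genes, with medians of 0.83 and -0.41. In 42 of the 58 pairs the lincRNA locus had the higher ratio, and the median difference was 0.94. Gm15834 had a log2 ratio of 3.07 where Orc2, a subunit of the origin recognition complex, had -0.44, and AI480526 had 3.72 where Setd1b had -0.15. 2010320M18Rik (-1.08) and Pik3r2 (-1.15), which encodes a regulatory subunit of phosphoinositide 3-kinase, had nearly the same ratio. The reverse order occurred too, as 2810032G03Rik stood at 0.22 beside 3.34 for Klhl29 and A330069E16Rik at -1.28 beside 1.71 for Ddb2, a gene of DNA repair.

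**Figure D4:**
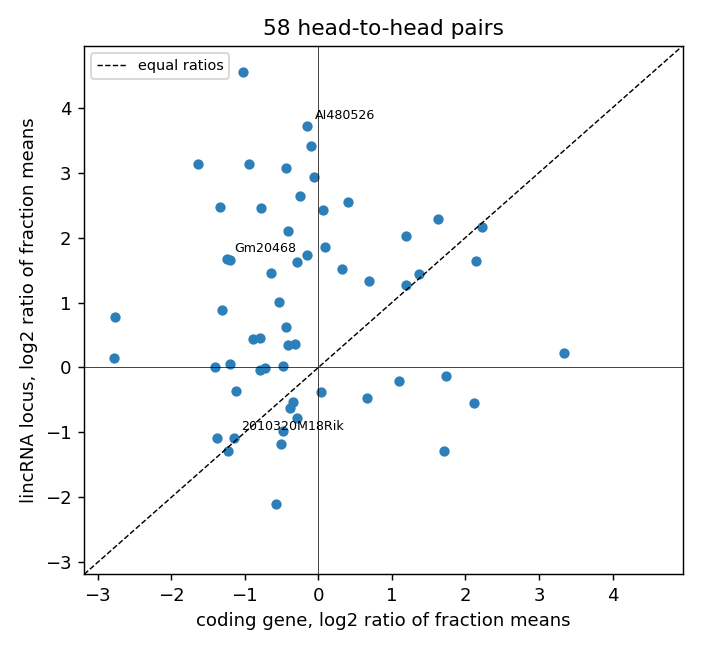
Each of the 58 points is a pair of a lincRNA locus and the coding gene that starts head to head with it, with the log2 ratio of the fraction means of the coding gene on the x axis and of the lincRNA locus on the y axis. Above the dashed line of equal ratios lie 42 pairs, and 2010320M18Rik sits close to it.

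Promoters were read from the RefSeq table (GRCm38.p6), which matched 147 of the 236 loci. For 19 of these, Gm12153, Lncpint and D230017M19Rik among them, the RefSeq start lay more than 500 bp from the GENCODE start, so the window is not at the annotated start of the locus. The windows printed above all lie at or near it. The 39 head-to-head loci among them had a median GC content of 66.0% and 28 CpG dinucleotides in 300 bases, the other 108 had 51.2% and 6, and all 32851 promoters of the table had 52.7% and 7. Without the 19, the 36 head-to-head loci left had 66.7% and 29.5, and the 92 others 51.5% and 6. The letters TATAAA, searched on both strands, were found in 7.69% of the head-to-head promoters, 17.6% of the others and 13.6% of all promoters. AGATAA, which GATA factors are known to bind, was found in 0%, 14.8% and 11.2%, and GGAATG, known from TEAD factors, in 15.4%, 21.3% and 14.7%. A match is a description of letters in a window and not of a bound site. Across the 147 loci the promoter GC content and the log2 fold change had a Spearman's rho of -0.11, as a description over loci that share the 6 libraries. Median GC content was 53.3% for the 61 higher, 56.8% for the 14 lower and 53.3% for the 72 uncalled loci with an entry.

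The long-read libraries gave a second readout of the chromatin fraction. Transcripts assembled from long reads, on the same strand and with at least 0.5 of their span inside the locus, were above 0 TPM at 182 of the 236 loci (77.1%) in either library and at 152 (64.4%) in both, against 76.7% of all assembled loci in either. The long-read assembly used here was not stranded, and with either strand allowed the count was 194. Of the loci with a short-read mean under 10, 39 of 69 had a long-read transcript, as had 59 of 77 from 10 to 100, 50 of 53 from 100 to 1000 and 34 of 37 above. These are 56.5%, 76.6%, 94.3% and 91.9% of the loci, where all assembled loci at the same levels had 58.9%, 50.1%, 69.0% and 94.6%. Of the higher loci 98 of 115 had one, of the lower ones 17 of 20 and of those not called 67 of 101. The 2 libraries had a Spearman's rho of 0.86 over the 152 loci, a description across loci that share both libraries. Mean TPM and chromatin counts per kb of span had a rho of 0.40 over the same loci. These are unlike measures, since the span includes introns and TPM is scaled to transcript length.

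Lncpint had 148 and 131 TPM in the 2 long-read libraries and Gm42047 had 256 and 397. Gm12153 had 82.7 and 63.3 TPM, and Lockd, which was lower in chromatin, still had 57.7 and 86.0. Bc1, Gm10076 and Gm7292 were at 0 in both under this rule. Bc1 and Gm10076 span only 154 and 369 bp, and each was overlapped on its strand by 1 transcript with less than 0.5 of its span inside. That transcript had 231 and 298 TPM at Bc1 and 1099 and 798 TPM at Gm10076. Gm7292 had 12.5 and 4.66 TPM once transcripts of either strand were allowed.

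**Figure D5:**
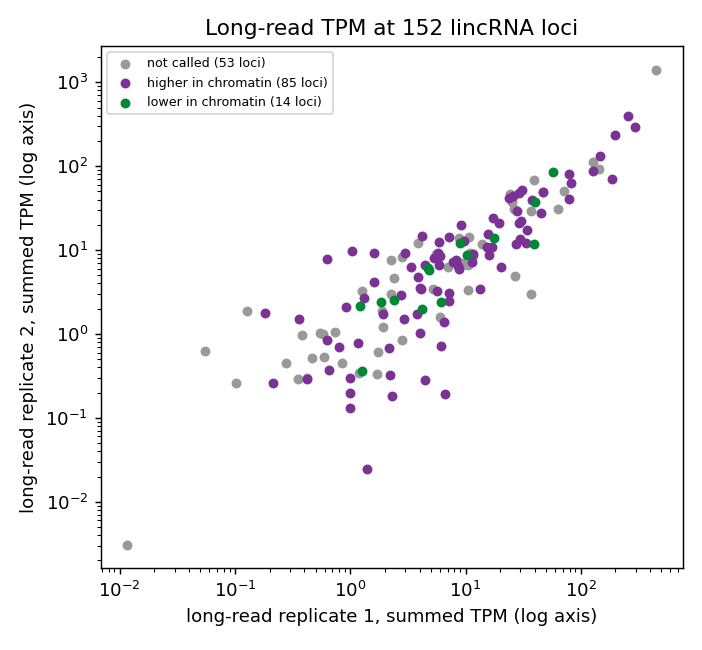
Each point is 1 of the 152 lincRNA loci above 0 in both long-read chromatin libraries, with the summed TPM of replicate 1 and replicate 2 on log axes. Higher (85), lower (14) and uncalled (53) loci lie along the same diagonal, with a Spearman's rho of 0.86.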

How the data were processed

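HL1 chromatin and nucleoplasm RNA was measured in 3 short-read libraries per fraction, from independent cultures per the study, and chromatin RNA in 2 long-read libraries. The authors aligned short reads to mm10 with hisat2 2.1.0, assembled and re-estimated transcripts with StringTie and deposited gene-level coverage signal as counts, each library divided by its DESeq2 size factor. The long-read values (minimap2, StringTie) were deposited as TPM. All values of the 6 short-read columns were whole multiples of 1 read (tolerance 0.001 reads), which gave 91657034 to 121773350 reads per library. Precision is limited by the 3 libraries.

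Fractions were compared with limma 3.58.1 (trend, R 4.3.3) on log2(normalized count + 1), pseudocount 1, over all 35830 genes above 0 in any library, with Benjamini-Hochberg adjustment. This differs from the DESeq2 test of the study because the values are normalized. edgeR 4.0.16 and DESeq2 1.42.0 on the recovered reads, other pseudocounts, filters, scalings, a replicate block and left-out libraries were alternatives. Reads of 35048 and 35018 genes were simulated, with log2 changes of 3 up or down in the changed genes and no replicate effect. There limma recovered 48.5% and 42.0% of all changed genes, and 90.8% and 95.5% of those whose mean reached 100. Recovery of smaller changes was not simulated, and the median log2 fold change of the lincRNA loci was 1.22. Named loci had a mean of at least 100 and were the 8 largest rises and 8 largest falls with an adjusted p under 0.05 and the same sign in all 3 pairs, the 5 highest per kb, loci within 100 kb of a cardiac transcription factor gene, and well-known lincRNAs at any level. Others were chosen after their values were seen. Sequence identity came from BLAST 2.17.0. The loci and lists were chosen with earlier results of these data known.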

Additional observations from a re-analysis of the deposited data

How the results depend on the processing

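The 115 higher calls lost none of their direction under any alternative fit, and 76 to 115 of them were called again. Of the 20 lower calls 15 to 20 were called again, except with ERCC scaling, where 3 were called again and 3 changed sign without passing the test. The median log2 fold change was 1.60 with a pseudocount of 0.1 and 0.64 with a pseudocount of 10, 1.57 with edgeR, 1.61 with DESeq2, 1.83 with ERCC scaling and 0.53 with quantile normalization. A pseudocount of 10 left 44 loci above the cheRNA thresholds and 1 more than 4 fold lower. ERCC scaling gave 3 lower loci and 0 more than 4 fold lower (0 at an unadjusted p under 0.05 with limma, against 4 with edgeR and 3 with DESeq2 in their own scaling), and turned Bc1 to 0.09188 and 2900097C17Rik to 0.31. Quantile normalization gave 76 higher loci and 12 more than 4 fold lower. limma's test against a fold change of 4 (treat) called 25 higher and 0 lower (1 at an unadjusted p under 0.05). An overlap of at least 0.8 kept 75 higher loci, 45 of them above the cheRNA thresholds, since fewer loci were taken. With 1 library left out at a time there were 96 to 109 higher, 15 to 21 lower, 65 to 75 above the cheRNA thresholds, 2 to 4 more than 4 fold lower, and a median of 1.14 to 1.32. Each long-read library alone covered 162 or 172 loci. Chosen after seeing the data were 3 alternatives. Leaving out replicate 3 in both fractions left 2 loci more than 4 fold lower, as did leaving out loci with a shared sequence. Leaving out the class of same-strand overlaps with coding genes changed no count by over 1.5 times.

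With the replicate number as a block, limma called 128 loci higher and 23 lower, Gm20468 and 1810058I24Rik among the higher ones, and edgeR called 97 higher and 24 lower with a median of 1.52. Same-numbered libraries had correlations of deviations of 0.10, 0.09 and 0.22, and each library correlated best with its own number. The limit set for pairing was 0.1, which not all of them passed, so the main test was left unpaired. By the methods of the study both fractions came from 3 independent cultures. Same-numbered libraries therefore most likely share a culture, although the labels do not say so. The main test leaves such a pairing out, and Gm20468 did not pass there. With the block in limma the SE went from 0.57 to 0.06 at Gm20468 and from 0.50 to 0.09 at Gm48619. Loci with few reads limit the calls, since 69 of 236 had a mean under 10. The cause of the changes with scaling was not tested.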

Other observations

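Gm19951 had the highest long-read value of all 236 loci, with 450 and 1412 TPM in the 2 chromatin libraries, while its short-read values were 0, 0 and 2.08 normalized counts in chromatin and 3.03, 0 and 0 in nucleoplasm. AC154200.1 was alike, with 127 and 111 TPM and a short-read mean of 1.32 normalized counts. Both loci were chosen after their values were seen. The study used different ribosomal RNA depletion kits for the short-read and long-read libraries. Only the long-read RNA was given poly(A) tails and primed with oligo-dT. The part of these steps in the differences between platforms was not tested.

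1700010I02Rik had the largest log2 fold change of the higher loci at any level, 5.62, with 114, 101 and 58.3 normalized counts in chromatin. Its nucleoplasm level was near 0, so the size of this change depends on the pseudocount of 1. 4930593A02Rik, head to head with Siah2, had 19.3 to 24.98 in chromatin and 0 in nucleoplasm replicates 2 and 3. Gm3985 had 27.4 and 26.2 in chromatin replicates 1 and 2 and 336 in replicate 3, and did not pass the test (limma adjusted p = 0.059).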
